A study of Homo sapiens with 12 samples.

Results

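KLHDC8B, CHST2 and KLF7 are 3 genes whose messenger RNA was higher in OVCAR-3 cells given Fusicoccin A (FC-A) and lower in the same cells given interferon alpha (IFNa), each against the vehicle DMSO. They were picked for that pattern from a table of 28035 genes, of which 15990 had enough reads to be tested, and all 3 were among those tested. The choice came without a threshold, so a cut was set here to describe its surroundings. The cut asks for a positive FC-A difference and a negative IFNa difference, both at an adjusted p under 0.05. Its values are from a linear model (limma, on log2 of the normalized reads plus 1). It was met by 8 genes, 0.05% of those tested, and the 3 described here are among these 8. Of all genes tested, 0.156% passed as higher with FC-A and 21.5% passed as lower with IFNa. Both differences chose the genes, so they are given below as values without a test.

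OVCAR-3 is an established line of epithelial cells from a human ovarian adenocarcinoma, labelled as wild type. Cells in 4 groups of 3 libraries each were harvested at 6 h: DMSO alone, FC-A, IFNa, and FC-A together with IFNa (Combination). FC-A is a fungal diterpene glycoside known for locking 14-3-3 proteins onto some of their partners, and IFNa is a cytokine that switches on antiviral genes. No source used here states the doses, and a single cell line limits the samples as a model of the tissue. The labels number the libraries 1 to 3 within each group without saying whether they came from separate cultures, so that each p-value rests on the spread among numbered libraries alone, and that spread may be technical.

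The genes act in different parts of the cell. KLHDC8B encodes a kelch-repeat protein found at the midbody, the bridge that joins daughter cells at the end of cytokinesis, and its loss has been linked to cells with more than a single nucleus. CHST2 encodes a Golgi enzyme that places sulfate on N-acetylglucosamine in glycan chains, a step in building keratan sulfate and the sulfated sialyl Lewis x ligands of L-selectin. KLF7 encodes a zinc finger transcription factor of the Krüppel-like family, whose members bind GC-rich and CACCC elements and which is best known for its role in the outgrowth of neurites.

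Libraries held 31.18 to 39.53 M reads on genes. Between 248 and 1121 reads per library fell on KLHDC8B (ENSG00000185909), 1126 to 2599 on CHST2 (ENSG00000175040) and 337 to 747 on KLF7 (ENSG00000118263). The sum of the normalized reads was 31.69 to 32.73 M in the libraries without IFNa and 36.27 to 37.62 M in those with it. All 5 interferon-induced genes read here to check the labels (ISG15, IFIT1, MX1, OAS1 and IRF7) rose with IFNa, by 4.36 to 8.62 on the log2 scale, and 0 passed with FC-A (limma, 0 at an unadjusted p under 0.05, edgeR 0, DESeq2 0). Over all genes, 25.4% rose with IFNa, and with FC-A 0.156% passed as higher and 0.144% as lower. All 6 epithelial markers were detected, with a summed level of 221700 to 311800 normalized reads. Replicate 3 of every group stood apart: its libraries deviated together from their group means across genes (Pearson r 0.188 to 0.395 between groups, against 0.0176 to 0.188 for replicate 1 and 0.0203 to 0.113 for replicate 2). For the comparisons of the 3 genes and the IFNa counts of the family and pathway lists the values without replicate 3 are given as well. The summed level of 7 fibroblast markers moved with IFNa, from 869.7 to 938.7 normalized reads with DMSO and 1028 to 1106 with FC-A to 1425 to 1936 with IFNa and 1589 to 2204 in the Combination. Most of it came from COL1A1, while DCN and LUM stayed between 0 and 1.904 reads. COL1A2 went the other way with IFNa, from a mean of 78.1 to 44.59 reads (log2 -0.81, limma adjusted p = 0.00441). COL3A1, PDGFRB and THY1 had too few reads to be tested and lower means with IFNa than with DMSO. Of 6 leukocyte markers 5 were measured, at a sum of 203.2 to 234.6 reads with DMSO, 198.7 to 249.2 with FC-A, 171.3 to 256.4 with IFNa and 209.0 to 287.2 in the Combination. Of 4 endothelial markers 3 were measured, and their sum was 285.7 to 359.5 reads with DMSO, 253.0 to 341.2 with FC-A, 193.1 to 253.2 with IFNa and 181.5 to 232.1 in the Combination. Of the endothelial markers, CDH5 and VWF fell with IFNa (log2 -0.53 and -1.14, limma adjusted p = 0.042 and 0.000686). KDR did not pass with IFNa (0.47) and was higher in the Combination than with DMSO (0.87, limma adjusted p = 0.00666). No measured marker of these lists was at 0 in every library, and the part of other cell types in the results was not tested.

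KLHDC8B had the widest span of the 3 genes. With DMSO its normalized reads were 671, 628 and 696 in replicates 1, 2 and 3 (665 ± 34.6, SD, n = 3). With FC-A they were 842, 887 and 1031 (919.9 ± 98.8, n = 3). With IFNa they were 301, 279.8 and 271 (284 ± 15.5, n = 3). Every FC-A library lay above every DMSO library, and every IFNa library lay below all of them. Of all genes tested, 7.81% had every FC-A library above every DMSO library. In 27.9% every IFNa library lay below every DMSO library. In bulk RNA such as this, fewer cells with a transcript and less of it per cell cannot be told apart. The FC-A mean was 1.38-fold the DMSO mean and the IFNa mean was 2.34-fold lower, which are log2 differences of 0.46 and -1.23. In the Combination the reads were 341, 347 and 393 (360.3 ± 28.4, n = 3). These 3 libraries lay between the IFNa and the DMSO libraries and overlapped neither.

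The 250 bases upstream of the KLHDC8B start in RefSeq are printed as the promoter of the gene with the largest response. They lie at chr3:49171348-49171597 on the plus strand of GRCh38.p14, a newer build than the hg19 of the deposited files, and run to the base before the start. Capitals mark a GC box (GGGCGGG on either strand), the kind of element bound by SP and KLF factors, whose first base lies 35 bases before the start.
KLHDC8B: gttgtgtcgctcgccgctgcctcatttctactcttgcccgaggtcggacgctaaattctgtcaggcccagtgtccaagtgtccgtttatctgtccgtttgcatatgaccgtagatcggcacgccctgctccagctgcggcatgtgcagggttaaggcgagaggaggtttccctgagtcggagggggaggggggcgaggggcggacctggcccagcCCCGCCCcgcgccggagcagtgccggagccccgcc
The window has 65.6% G and C, against a median of 58.0% over 35116 windows of the same length for 27305 genes. A GC box was present in 31.5% of those windows.

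CHST2 followed the same order of groups with smaller differences. Its normalized reads with DMSO were 1746, 1654 and 1698 (1699 ± 45.9, SD, n = 3). With FC-A they were 2028, 2388 and 2390 (2269 ± 209, n = 3). With IFNa they were 1168, 1072 and 1232 (1157 ± 80.6, n = 3). All FC-A libraries lay above the DMSO libraries and all IFNa libraries lay below them, as in 7.81% and 27.9% of genes tested. The FC-A mean was 1.33-fold the DMSO mean and the IFNa mean was 1.47-fold lower (log2 differences of 0.41 and -0.56). The Combination libraries held 1531, 1393 and 1416 reads (1447 ± 74.3, n = 3), all above the IFNa libraries and all below the DMSO libraries. The lowest FC-A library was replicate 1.

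KLF7 responded least to IFNa. Its normalized reads with DMSO were 452, 460.2 and 485 (466 ± 17.5, SD, n = 3). With FC-A they were 666, 573 and 683 (641 ± 59.35, n = 3). With IFNa they were 394, 395 and 368 (385.5 ± 15.4, n = 3). The FC-A libraries again all lay above the DMSO libraries and the IFNa libraries below them, as in 7.81% and 27.9% of genes tested. The FC-A mean was 1.37-fold the DMSO mean while the IFNa mean was 1.21-fold lower (log2 differences of 0.46 and -0.27). In the Combination the reads were 449, 405 and 392 (415 ± 29.7, n = 3). Replicate 1 lay just under the lowest DMSO library and replicate 3 lay under 2 of the 3 IFNa libraries, so that the Combination libraries overlapped those of IFNa.

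**Figure D1:**
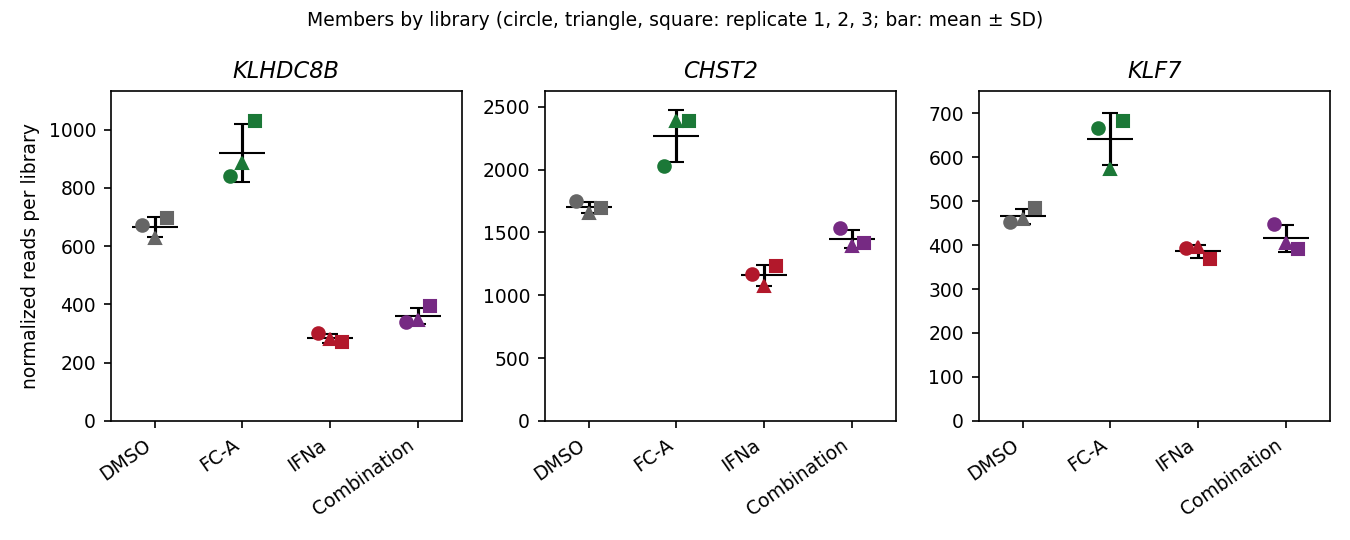
Normalized reads of KLHDC8B, CHST2 and KLF7 (vertical axes, from 0) in the 4 groups (horizontal axis). Each symbol is a library (circle, triangle and square for replicates 1, 2 and 3), and the bars give the mean and SD of 3 libraries. In each panel FC-A is highest, then DMSO, Combination and IFNa, and the Combination overlaps IFNa for KLF7 alone.

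In all 3 genes the order of the group means was FC-A, DMSO, Combination, IFNa. Without replicate 3 of every group the FC-A differences from DMSO were 0.41 for KLHDC8B, 0.37 for CHST2 and 0.44 for KLF7, and the IFNa differences were -1.16, -0.6 and -0.21. The neighbouring groups in that order had no library in common range except Combination and IFNa for KLF7. The separation of FC-A and of IFNa from DMSO restates the choice of the genes and is no support for it. Levels are not compared between the genes, because normalized reads are not corrected for transcript length.

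KLF7 has 4 windows in the RefSeq table, 1 for each annotated start, and the deposited reads are summed per gene and do not separate the starts. The 2 windows with the highest share of G and C are printed because they differ in the elements that KLF and SP factors bind. Both are on the minus strand of GRCh38.p14, the first at chr2:207165949-207166198 and the second at chr2:207166857-207167106, and capitals mark GC boxes.
KLF7 first window: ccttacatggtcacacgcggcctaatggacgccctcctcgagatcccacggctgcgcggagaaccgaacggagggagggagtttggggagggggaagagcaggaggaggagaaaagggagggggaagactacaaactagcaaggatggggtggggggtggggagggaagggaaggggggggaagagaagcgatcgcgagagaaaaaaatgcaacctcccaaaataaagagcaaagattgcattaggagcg
KLF7 second window: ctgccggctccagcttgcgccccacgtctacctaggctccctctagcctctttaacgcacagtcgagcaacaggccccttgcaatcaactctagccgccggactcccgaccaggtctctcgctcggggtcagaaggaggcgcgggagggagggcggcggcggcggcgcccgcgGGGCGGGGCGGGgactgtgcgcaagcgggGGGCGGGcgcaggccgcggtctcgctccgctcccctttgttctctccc
The first window has 58.0% G and C, no GC box and 2 CACCC boxes (CACCC on either strand, present in 54.7% of all windows). The second has 72.0% G and C and 3 GC boxes, with first bases 77, 72 and 48 bases before the start, of which the first 2 overlap. The window of CHST2 overlaps an exon annotated by GENCODE and is not printed. It has 78.0% G and C and holds 2 GC boxes, which overlap. A GC box was therefore found in at least 1 window of each gene, and in 3 of the 6 windows in all. The share of 31.5% is over windows and not over genes, and KLF7 had 4 windows in which to match. All 3 windows with a GC box had more G and C than the median window (58.0%).

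Elements of interferon and stress signalling were looked for in the same 6 windows on both strands. The core of the interferon-stimulated response element (GAAA, any 2 bases and GAAA again, in 3.02% of all windows) was in none of them. An AP-1 site (TGANTCA, 6.57%), a cAMP response element (TGACGTCA, 1.65%), a FOXO site (GTAAACA, 2.98%) and a sterol element (TCACNCCAC, 0.883%) were likewise not matched. A window of KLF7 that is not printed, at chr2:207134138-207134387, held 1 match to a GAS element (TTCNNNGAA, 6.57%) and 1 to the E-box CACGTG (6.34%). Absence of a match says only that these letters are not in these windows.

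No difference that chose the genes contains the Combination, although its libraries enter the expression filter and the pooled spread behind the cut (without Combination replicate 1 KLHDC8B lay outside it, and without Combination replicate 2 KLHDC8B and KLF7 did). The Combination was compared first with DMSO, whose libraries did take part in the choice. KLHDC8B fell by 0.88 on the log2 scale (SE 0.09, 95% confidence interval -1.07 to -0.7, limma adjusted p = 1.35e-06), a mean difference of 1.85-fold. CHST2 fell by 0.23 (SE 0.07, interval -0.39 to -0.08, limma adjusted p = 0.0153), or 1.18-fold. KLF7 had a log2 difference of -0.17 (SE 0.08, interval -0.34 to 0.01, limma adjusted p = 0.107) and did not pass. So 2 of the 3 genes passed as lower, where 22.2% of all genes tested did. The genes were chosen for being lower with IFNa than in these DMSO libraries, and the Combination also contains IFNa. The share over unselected genes is therefore no test of these counts. All 3 Combination libraries lay below all 3 DMSO libraries for each of the 3 genes, which was true of 29.4% of genes tested. The call for CHST2 was lost without DMSO replicate 1 (-0.21, limma adjusted p = 0.0572) or without Combination replicate 2 (-0.21, limma adjusted p = 0.0604), and its adjusted p ranged from 0.00144 to 0.0604 over all alternatives tried. Without replicate 3 of every group the differences were -0.91 for KLHDC8B, -0.22 for CHST2 and -0.1 for KLF7 (limma adjusted p = 1.89e-07, 0.0279 and 0.413).

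The effect of IFNa in the presence of FC-A was read from the Combination against FC-A. The genes were chosen for being high in the FC-A libraries, so this comparison is not independent of the choice. KLHDC8B was 2.54-fold lower (log2 difference -1.35, interval -1.54 to -1.16, limma adjusted p = 1.35e-08). CHST2 was 1.56-fold lower (-0.65, interval -0.8 to -0.49, limma adjusted p = 4.22e-06). KLF7 was 1.54-fold lower (-0.62, interval -0.8 to -0.45, limma adjusted p = 2.27e-05). All 3 passed as lower, against 22.3% of genes tested, and all Combination libraries lay below all FC-A libraries for the 3 genes, against 25.4% of genes. These shares are over unselected genes and are no test of the counts. Of the 15990 genes, 206 fell further than KLHDC8B, 1481 further than CHST2 and 1568 further than KLF7. Without replicate 3 the differences were -1.33, -0.59 and -0.53, all past the threshold (limma adjusted p = 1.98e-09, 1.03e-05 and 0.00019).

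The effect of FC-A in the presence of IFNa was read from the Combination against IFNa. The genes were chosen for being low in the IFNa libraries, so this comparison is not independent of the choice either. The log2 difference was 0.34 for KLHDC8B (1.27-fold, interval 0.15 to 0.53, limma adjusted p = 0.137). It was 0.32 for CHST2 (1.25-fold, interval 0.17 to 0.48, limma adjusted p = 0.0772). For KLF7 it was 0.11 (1.08-fold, interval -0.07 to 0.28, limma adjusted p = 0.586). None of the 3 passed over all genes (limma, 2 of them with an unadjusted p under 0.05, edgeR 0), where 0.138% of genes tested did as higher and 0.194% as lower. With the replicate number as a block KLHDC8B and CHST2 did pass (limma adjusted p = 0.0154 and 0.00823). That fit called 542 of the 15990 genes higher. All Combination libraries lay above all IFNa libraries for KLHDC8B and CHST2 but not for KLF7, and 9.64% of genes tested were separated in this way. The value of CHST2 was at the edge of the threshold. It passed without FC-A replicate 1 (limma adjusted p = 0.0293), without IFNa replicate 3 (0.0281) and without replicate 3 of every group (0.00945), and its adjusted p ranged from 0.00823 to 0.376 over all alternatives. Calls rose over all genes in these fits, from 22 genes higher with all libraries to 46, 313 and 619 in the same order. It also passed in DESeq2 on the recovered reads (0.33, DESeq2 adjusted p = 0.00959), which called 1.11% of its genes higher. In the authors' deposited table the same comparison has a log2 difference of 0.32 and an adjusted p of 0.00978 for CHST2, and 1.01% of that table's genes pass as higher. The authors' deposited table gives KLHDC8B 0.34 with an adjusted p of 0.08 and KLF7 0.11 with an adjusted p of 0.678. Without replicate 3 of every group KLHDC8B had a difference of 0.24 and KLF7 of 0.11 (limma adjusted p = 0.0882 and 0.506).

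**Figure D2:**
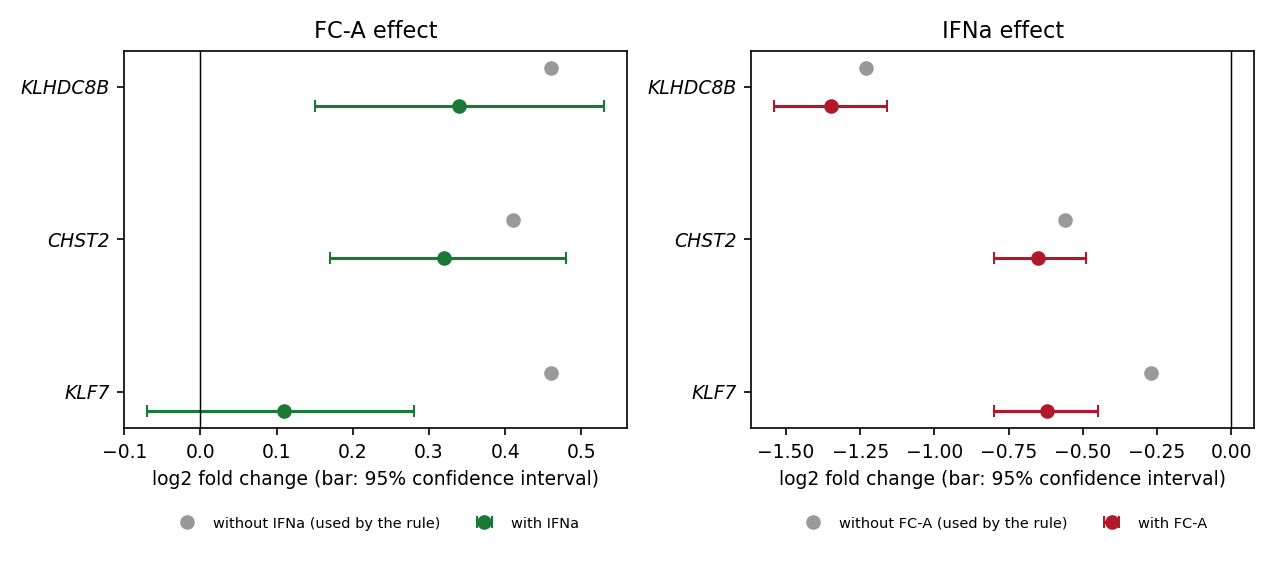
Log2 fold changes (horizontal axes) of KLHDC8B, CHST2 and KLF7 with FC-A (left) and with IFNa (right), alone in grey and in the presence of the other agent in colour, where bars are 95% confidence intervals. Grey points chose the genes and carry no interval. With IFNa present the FC-A difference of KLF7 is 0.11 and its interval includes 0, and with FC-A present the 3 IFNa differences are -1.35, -0.65 and -0.62.

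Whether the FC-A difference itself changed with IFNa was tested by the interaction, the FC-A difference with IFNa minus that without. Of its 12 libraries, 9 took part in choosing the genes. It was -0.12 for KLHDC8B (interval -0.39 to 0.14), -0.09 for CHST2 (interval -0.31 to 0.13) and -0.35 for KLF7 (interval -0.6 to -0.1), each with a limma adjusted p of 1.0. None of the 15990 genes passed in this test, which is 0.0%, while 627 had an unadjusted p under 0.05, edgeR called 0 and DESeq2 called 3. Without replicate 3 of every group the interaction was -0.17 for KLHDC8B, 0.01 for CHST2 and -0.32 for KLF7 (limma adjusted p = 0.637, 0.979 and 0.395). If the 2 log2 effects had added, the Combination level of KLHDC8B would have been 391 normalized reads, where the level from the mean log2 value was 359.5. For CHST2 these values were 1538 and 1445. For KLF7 they were 529 and 414, the widest gap of the 3 in proportion. A p past the threshold over all genes was not reached for any of them, so a departure from additivity is not shown.

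The 5 other genes inside the same cut were DDIT4 (an inhibitor of mTORC1), DNMT3B (a DNA methyltransferase), MVK (mevalonate kinase, of cholesterol synthesis), FADS2 (a fatty acid desaturase) and WNT11 (a secreted Wnt ligand). The larger of the 2 adjusted p-values was 0.00659 for DDIT4, 0.0296 for CHST2, 0.0342 for KLF7, 0.0437 for KLHDC8B and 0.0483 for WNT11, the last inside. Just outside lay PRKCH (a protein kinase C, 0.0518), BMF (a BH3-only protein of apoptosis, 0.0624), GSE1 (0.0624), FDFT1 (squalene synthase, 0.07) and GPR56 (an adhesion receptor, 0.0722). These values describe the edge of the cut set here and are no test. The number of genes inside depended on single libraries: it was 8 with all libraries, 2, 0 and 1 without DMSO replicate 1, 2 and 3, and 20, 2 and 2 without FC-A replicate 1, 2 and 3. It was 1 without IFNa replicate 1 and 5 without Combination replicate 2. KLHDC8B, CHST2 and KLF7 were all outside when any of the DMSO libraries, FC-A replicate 3 or IFNa replicate 1 was left out, while the sign of their FC-A and IFNa differences held throughout.

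DDIT4 and BMF are named for the same differences that chose the 3 genes, and their values in the Combination are given without a test. The mean of DDIT4 was 3655 normalized reads with DMSO, 5711 with FC-A, 2791 with IFNa and 5190 in the Combination. Its Combination mean thus lay above its DMSO mean (log2 difference 0.5), whereas that of KLHDC8B, CHST2 and KLF7 lay below. The other genes inside the cut also lay below: DNMT3B (-0.15), MVK (-0.45), FADS2 (-0.44) and WNT11 (-0.19). DDIT4 was thus the exception inside the cut, and a lower Combination was not particular to the 3 genes. Whether the genes differ in this was not tested. BMF, the gene next to the edge with the steepest IFNa response, had 2806, 4367, 424 and 773 reads in the same order of groups.

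**Figure D3:**
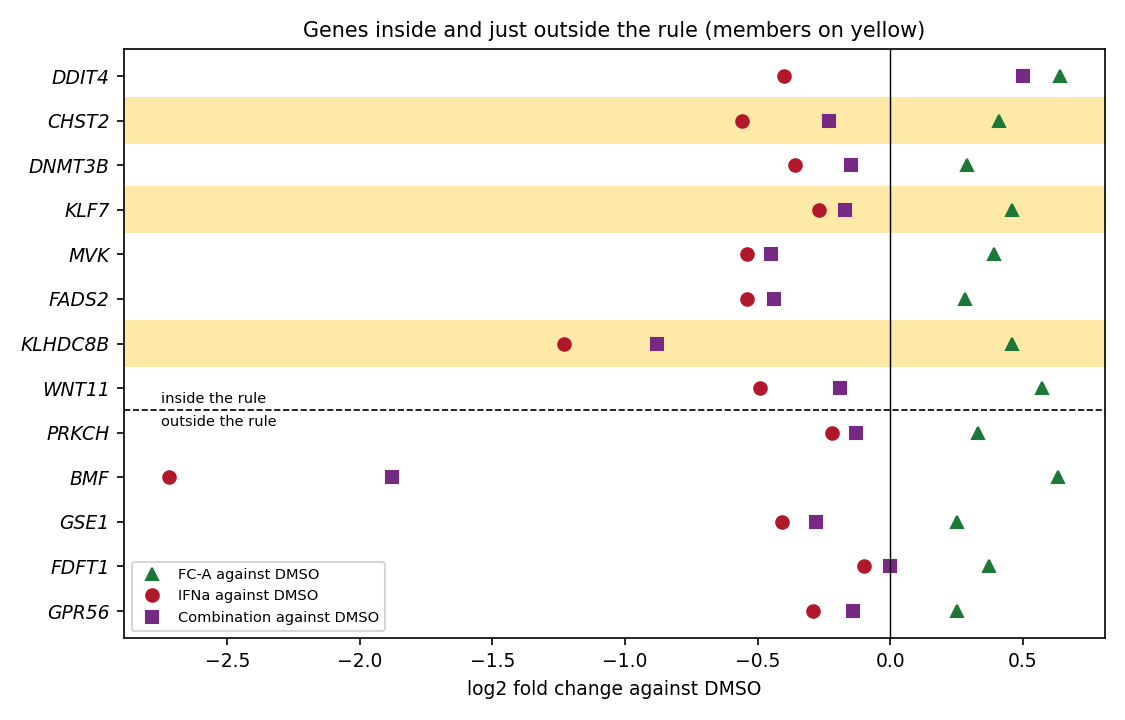
Log2 fold changes against DMSO (horizontal axis) for the 8 genes inside the cut and the 5 just outside it (vertical axis, ordered by the larger adjusted p), with KLHDC8B, CHST2 and KLF7 on yellow. Triangles are FC-A, circles IFNa and squares the Combination. Inside the cut the Combination lies on the positive side for DDIT4 alone (0.5). It lies on the negative side for the 3 genes (-0.88, -0.23 and -0.17) and for DNMT3B, MVK, FADS2 and WNT11.

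Among the relatives of KLF7, 21 other KLF and SP factors had enough reads to be tested. None of them passed with FC-A (limma, 1 higher and 1 lower at an unadjusted p under 0.05, edgeR 0, DESeq2 0, and 1 higher and 1 lower without replicate 3), where 0.156% of all genes passed as higher and 0.144% as lower. With IFNa 9 rose and 2 fell (7 and 1 without replicate 3), where 25.4% of all genes rose and 21.5% fell, and the median log2 difference of the list was 0.08 against -0.01 for all genes. Quantile scaling shifted the median of all genes to -0.1 and the calls over all genes from 4067 higher and 3440 lower to 2975 and 5157, and the median of this list to -0.11. KLF6, the closest relative of KLF7, had a mean of 3609 normalized reads with DMSO, and its libraries with IFNa held 11460, 11850 and 11080. KLF6 rose 3.18-fold with IFNa (log2 1.67, SE 0.07, limma adjusted p = 7.1e-11). KLF6 thus went the opposite way to KLF7 under IFNa, and with FC-A its 4289, 3668 and 3741 reads overlapped those of DMSO (log2 0.11, limma adjusted p = 0.708). KLF10, an early gene of TGF-beta signalling, rose by 1.16 and KLF16 by 1.0 (limma adjusted p = 2.41e-07 and 9.13e-07). KLF15 fell by 2.16 and KLF9 by 0.5 (limma adjusted p = 0.000113 and 0.0305), KLF15 from a mean of only 26.2 normalized reads to 5.08.

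The other genes that have been linked to KLF7 in neurons were read from a list of 7, of which 4 had enough reads. CDKN1A, an inhibitor of cyclin-dependent kinases, was the only one of the 4 to pass with FC-A, with a mean of 881.5 normalized reads with DMSO and 1182 with FC-A (log2 0.42, SE 0.07, limma adjusted p = 0.0183). Unlike KLF7, CDKN1A rose with IFNa, to 3324 reads (1.91, limma adjusted p = 1.5e-11). It was also higher in the Combination, at 4381 reads, than with IFNa (0.4, limma adjusted p = 0.0273). With IFNa the neurotrophin receptor gene NTRK2 rose by 0.88 and the adhesion gene L1CAM by 0.28, while CDKN1B, another kinase inhibitor, fell by 0.3 (limma adjusted p = 9.45e-05, 0.00969 and 6.69e-05). The 3 that rose and 1 that fell among these 4 were also the counts without replicate 3. Over all genes tested, 25.4% rose and 21.5% fell with IFNa. As higher, 0.156% of all genes passed with FC-A and 0.138% in the Combination against IFNa.

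CHST2 was set beside 28 other sulfotransferases of the Golgi and genes that supply them with activated sulfate. None of the 28 passed with FC-A (limma, 1 higher and 0 lower at an unadjusted p under 0.05, edgeR 0, DESeq2 0). Of all genes, 0.156% passed as higher with FC-A and 0.144% as lower, and 8.61% had an unadjusted p under 0.05. With so few calls over all genes, 0 in a list of this size does not set the list apart. With IFNa 5 rose and 10 fell (4 and 10 without replicate 3), where 25.4% and 21.5% of all genes did, with a list median of -0.16 against -0.01 over all genes. In the Combination 6 were higher and 15 lower than with DMSO (5 and 13 without replicate 3), where 26.1% and 22.2% of all genes passed. GAL3ST4, which sulfates galactose, rose 3.03-fold with IFNa (log2 1.6, limma adjusted p = 0.000117), and CHST15 and CHST11, which sulfate chondroitin, rose by 0.95 and 0.75. GAL3ST1, which makes sulfatide, and CHST6, the enzyme of corneal keratan sulfate, fell by 1.12 and 1.11 (limma adjusted p = 2.89e-05 and 0.000304), each 2.17-fold. HS3ST5, a heparan sulfate sulfotransferase, fell by 1.35 (limma adjusted p = 0.00276). CHST2, at -0.56, lay within the range of the 10 genes that fell, which ran from -1.35 for HS3ST5 to -0.22 for HS2ST1.

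The chains that CHST2 sulfates are built by enzymes of a further list, of which 15 had enough reads. With FC-A 0 of the 15 passed (limma, 0 at an unadjusted p under 0.05, edgeR 0, DESeq2 0), where 0.156% of all genes passed as higher and 0.144% as lower. With IFNa 6 rose and 3 fell (6 and 5 without replicate 3), where 25.4% and 21.5% of all genes did. The fucosyltransferase gene FUT4 rose 3.52-fold (log2 1.82, SE 0.09, limma adjusted p = 5.01e-10), and B3GNT2 and B3GNT7, which extend N-acetyllactosamine and keratan sulfate chains, rose by 1.32 and 1.18 (limma adjusted p = 2.91e-09 and 9.5e-06). CHST6 was the gene of this list that fell most. CHST6 and CHST4 stand in this list and in that of the sulfotransferases, so the lists are not separate sets.

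KLHDC8B was set beside 7 other genes named for a kelch domain. None of the 7 passed with FC-A (limma, 0 higher and 1 lower at an unadjusted p under 0.05, edgeR 0, DESeq2 0), where 0.156% of all genes passed as higher and 0.144% as lower. With IFNa 1 rose and 3 fell (1 and 4 without replicate 3), beside 25.4% and 21.5% of all genes. KLHDC7B rose by 2.44 on the log2 scale (limma adjusted p = 0.000439), from a mean of only 3.17 normalized reads to 19.63. KLHDC9 fell by 1.46 and KLHDC2, a substrate receptor of a ubiquitin ligase, fell by 0.48 (limma adjusted p = 5.7e-05 and 1e-05). KLHDC8A, the closest relative of KLHDC8B, had 599.5, 574 and 759 normalized reads with DMSO and 505.2, 607.6 and 705.4 with FC-A. With IFNa KLHDC8A had 534.4, 427.4 and 776.9 reads and in the Combination 643.8, 662 and 680.1. The KLHDC8A groups overlapped throughout, and it passed neither with FC-A (-0.09) nor with IFNa (-0.19).

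**Figure D4:**
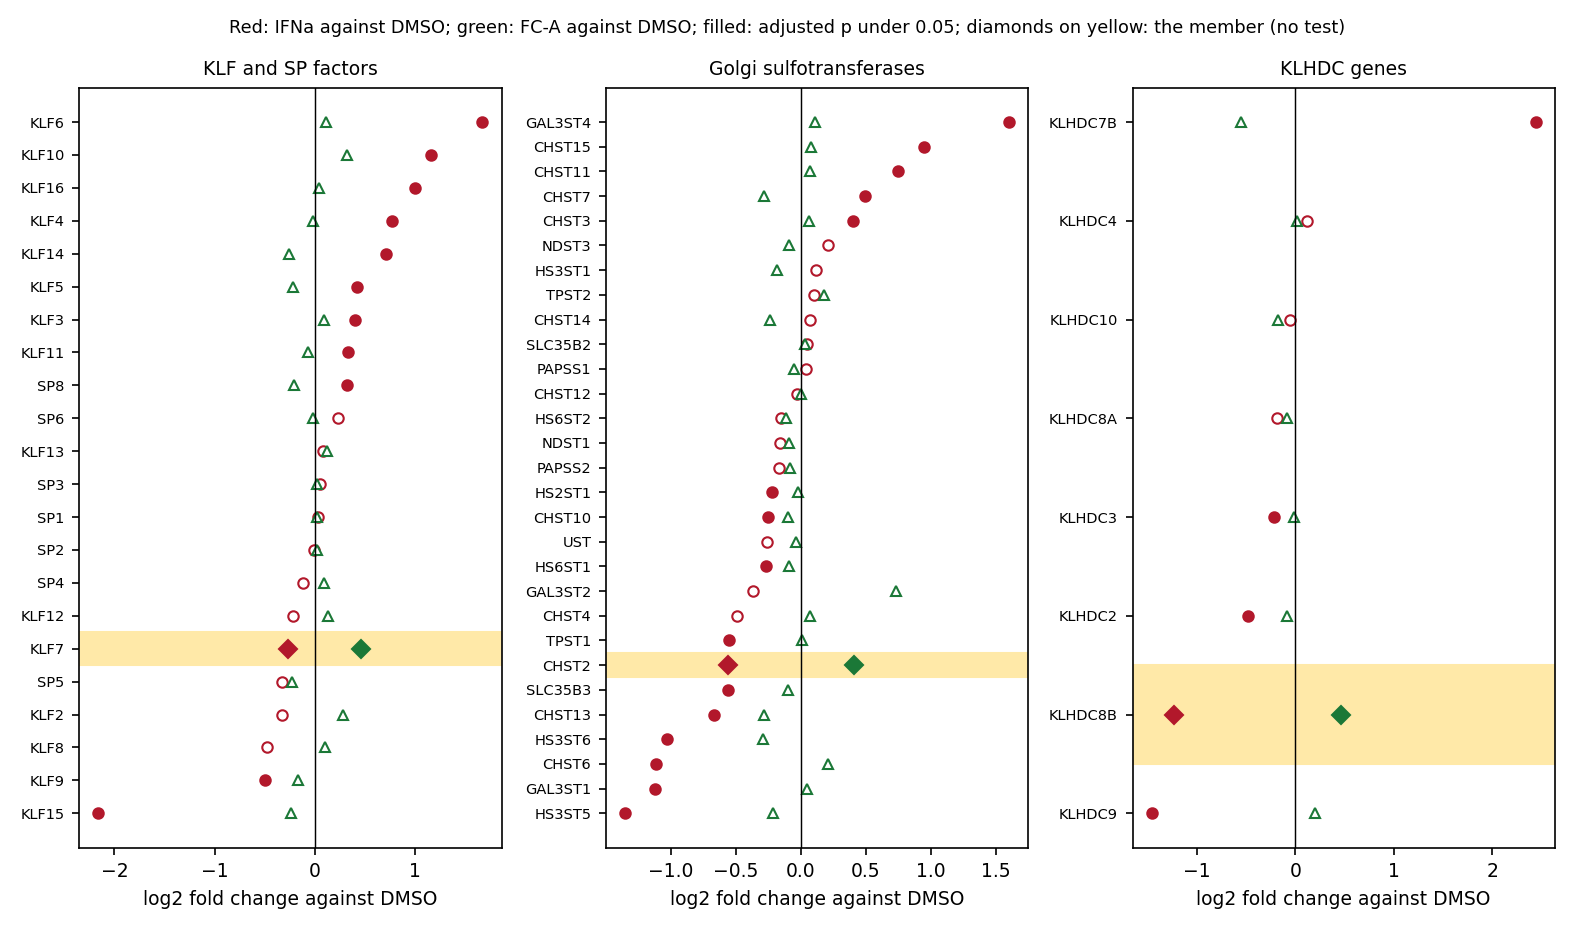
Log2 fold changes against DMSO (horizontal axes) for KLF and SP factors, Golgi sulfotransferases and KLHDC genes, ordered by the IFNa value, with circles for IFNa and triangles for FC-A, filled where limma's adjusted p was under 0.05. Diamonds on yellow mark KLF7, CHST2 and KLHDC8B, for which no test is read. No triangle is filled in any of the panels, and KLF6 (1.67) and KLF7 (-0.27) lie on opposite sides of 0 with IFNa.

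Genes of the midbody and of cytokinesis, where the KLHDC8B protein is found, did not pass with FC-A in any case (0 of 35 in limma, 0 at an unadjusted p under 0.05, edgeR 0, DESeq2 0). Over all genes, 0.156% passed as higher with FC-A and 0.144% as lower, and 8.61% had an unadjusted p under 0.05. With IFNa 18 of the 35 fell and 6 rose, also without replicate 3, where 21.5% and 25.4% of all genes did, with a list median of -0.14 against -0.01 for all genes. Under quantile scaling, which moved the calls over all genes to 5157 lower and 2975 higher, 23 fell and 1 rose. The kinesin gene KIF20A fell 1.88-fold (log2 -0.91, SE 0.06, limma adjusted p = 1.09e-08), and CIT, which encodes citron kinase, fell by 0.57 (6.46e-06). ZFYVE26, whose product is recruited to the midbody, rose by 1.12 (limma adjusted p = 5.31e-08). The IFNa difference of KLHDC8B, -1.23, was larger than that of any of these 35 genes, whose values ran from -0.91 to 1.12, and this is a description, since KLHDC8B was chosen for it.

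In the Combination against IFNa, 0 genes of the 6 family and pathway lists passed apart from CDKN1A (limma), where 0.138% of all genes did as higher and 0.194% as lower. At an unadjusted p under 0.05, 4 KLF and SP factors were higher and 1 lower, 1 sulfotransferase was higher and 4 lower, 3 chain enzymes were higher, and 1 midbody gene was higher and 1 lower, where 13.2% of all genes had such a p. DESeq2 called 1 KLF or SP factor higher in this comparison, and edgeR called none but CDKN1A in these lists. Without replicate 3 of every group, limma called 3 KLF and SP factors, 1 chain enzyme and 1 kelch gene higher and 4 sulfotransferases and 3 midbody genes lower, besides CDKN1A, where 7.42% of all genes passed.

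The genes whose levels over the 12 libraries ran most like each of the 3 were ranked by Pearson r of log2 values, a description shaped by the 4 groups and the shared depth of the libraries. For KLHDC8B the closest were PCDH1 (a protocadherin, r = 0.994), BMF (0.992), GSE1 (0.986), RXRA (a retinoid receptor, 0.986) and PITPNM3 (0.986). PCDH1 had means of 2591, 3138, 1445 and 1698 normalized reads with DMSO, FC-A, IFNa and the Combination. For CHST2 the closest were DDAH2 (0.989), TTYH3 (0.979), CRIP2 (0.976), PPARD (a nuclear receptor, 0.972) and SYT7 (0.967). CRIP2 had 13670, 16060, 9937 and 12210 reads in the same order. For KLF7 they were GPR56 (0.948), YTHDF3-AS1 (0.94), FDFT1 (0.94), VSIG10 (0.935) and MVK (0.926). YTHDF3-AS1 overlaps a gene on the other strand, and it is not stated whether counting used the strand. The r was above 0.9 with 846 genes for KLHDC8B, 259 for CHST2 and 28 for KLF7. Between the 3 genes r was 0.947 for KLHDC8B and CHST2, 0.902 for CHST2 and KLF7 and 0.895 for KLHDC8B and KLF7, and for none of them was another of the 3 among its 5 closest genes.

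The neighbours of the 3 genes on their chromosomes were read in the same way. The 2 nearest tested genes on each side in the RefSeq order were LAMB2, CCDC71, C3orf62 and USP4 for KLHDC8B on chromosome 3. For CHST2, also on chromosome 3, they were PCOLCE2, U2SURP, SLC9A9 and PLOD2, and for KLF7 on chromosome 2 they were MDH1B, FASTKD2, CREB1 and METTL21A. The log2 differences of these 12 genes with FC-A ran from -0.62 for SLC9A9 to 0.11 for MDH1B, with limma adjusted p-values of 0.521 to 0.978. With IFNa, USP4 (0.25), U2SURP (0.18), PLOD2 (0.17), FASTKD2 (0.25) and CREB1 (0.26) rose, with limma adjusted p-values of 0.00111, 0.0141, 0.0393, 0.0172 and 0.00102, though under quantile scaling U2SURP (-0.06) and PLOD2 (-0.03) changed sign. PCOLCE2 fell by 0.48 and METTL21A by 0.29 (limma adjusted p = 0.0452 and 0.0493). Over all genes tested, 25.4% rose and 21.5% fell with IFNa, so such calls among neighbours are common. No RefSeq gene overlaps KLHDC8B or CHST2, and the microRNA genes MIR2355 and MIR7845 lie within KLF7 and were not tested.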

How the data were processed

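The authors deposited a signal table of normalized counts per gene, 1 column per library, and tables of their own comparisons with log2 fold changes, Wald scores, p-values and adjusted p-values, per the file headers. Per the submitters' processing notes, the build was hg19 and the tools were DESeq2 1.24.0, STAR 2.7.3, bcl2fastq 2.20 and FastQC. No source used here names the counting program or annotation. A stranded mRNA kit was used, per the labels.

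The 3 genes and all gene lists were chosen with earlier results of these data known. A gene was tested if its mean over the 12 libraries reached 10 normalized reads (15990 genes, with 12045 left out). limma 3.58.1 in R 4.3.3 fitted log2(value + 1), which understates fold changes of low genes, with 4 group means and a variance trend. Two-sided p-values were corrected over all genes (Benjamini-Hochberg) and read at 0.05. The script was tested on simulated data. Reads were recovered by 1 factor per library (100% of values within 0.01 of a whole number), on which edgeR 4.0.16 and DESeq2 1.42.0 were run. edgeR called 48 genes for FC-A and 7533 for IFNa against DMSO, and for the Combination 7783 against DMSO, 55 against IFNa and 7922 against FC-A. Other alternatives were pseudocounts, filters, TMM and quantile scaling, no variance trend, the compared groups only, a replicate block, each library left out, and the authors' tables.

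Named genes were the 3 genes, others inside the cut and the 5 just outside it, up to 3 largest changes per list and comparison, the 5 highest r, 2 neighbours on each side, KLF6, KLHDC8A, and check genes. 1 check gene is not reported here. Promoter windows are from RefSeq (GRCh38.p14), and all 3 genes matched. No coordinates of the deposited build were used.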

Additional observations from a re-analysis of the deposited data

How the results depend on the processing

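The sign of the FC-A and IFNa differences of the 3 genes held in all 25 alternatives, with FC-A values of 0.38 to 0.52 for KLHDC8B, 0.37 to 0.49 for CHST2 and 0.41 to 0.53 for KLF7. Against FC-A, the Combination was lower past the threshold for the 3 genes in all 25. Quantile scaling moved the IFNa difference of CHST2 to -0.67 and took KLF7 past the threshold in the Combination against DMSO (-0.22, limma adjusted p = 0.0349, range over alternatives 0.0349 to 0.413). CHST2 in the Combination against DMSO ranged from -0.27 to -0.21 with 1 library left out (calls lost without DMSO replicate 1 at -0.21 and without Combination replicate 2 at -0.21). CHST2 in the Combination against IFNa ranged from 0.27 to 0.37 with 1 library left out (calls gained at 0.32 without FC-A replicate 1 and 0.37 without IFNa replicate 3), and passed at 0.38 without replicate 3 of every group (adjusted p = 0.00945), at 0.33 in DESeq2 (adjusted p = 0.00959) and at 0.32 in the authors' deposited tables. The interaction of CHST2 changed sign without replicate 3 of every group (0.01), and the cause was not tested. No interaction was fitted for the compared groups only or the authors' tables.

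The labels do not say whether the replicate numbers pair the libraries, and this was not tested. All 18 same-numbered pairs had a positive r (0.0176 to 0.395), and 10 of them had an r over 0.1. Differently numbered pairs ran from -0.354 to 0.257. With the replicate block, the Combination against IFNa passed for KLHDC8B (0.34, limma adjusted p = 0.0154) and CHST2 (0.32, limma adjusted p = 0.00823), where 542 of 15990 genes passed as higher, and the cut took in 45 genes. It changed no other call of the 3 genes.

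The cut took in 8 genes, 17 with quantile scaling, 0 without a variance trend, 2 with the compared groups only, 14 without replicate 3 of every group, 33 in DESeq2, 27 in the authors' tables and 0 to 20 with 1 library left out (2, 0 and 1 without DMSO replicate 1, 2 and 3, 20, 2 and 2 without FC-A replicate 1, 2 and 3, 1 without IFNa replicate 1, 5 without Combination replicate 2). The cause was not tested. The lowest library held 248 reads of KLHDC8B, 337 of KLF7 and 1126 of CHST2, which bounds the counting precision.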
